A study of Mus musculus with 10 samples.

Results

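The genes of 10 acute-phase proteins (Saa1, Saa2, Saa3, Lcn2, Hp, Lrg1, Cp, Lbp, Orm1 and Ptx3) were followed in mouse mammary tumors treated with lovastatin (Lov) or vehicle (Vhcl). They were chosen by name from the 18193 genes that the arrays represented by at least 1 probe set annotated to a single gene symbol. The choice was made with earlier results of these data known, so counts over these genes are a description only. Together they had 20 probe sets of the 45037 tested. Where a gene had several, the probe set of highest mean signal over the 10 tumors stood for it and the others are given beside it. The tumors were 5 from Lov-treated mice (A19, A48, A50, A55 and AB10) and 5 from Vhcl-treated mice (A45, A49, A54, A59 and AB11). All were spontaneous mammary tumors of female FVB/N-Tg(MMTVneu) mice (Tg-neu), in which the MMTV promoter drives the neu oncogene in mammary epithelium. Lovastatin, an inhibitor of HMG-CoA reductase in the mevalonate pathway, was injected i.p. at 10 mg/kg 3 times a week for 6 weeks from the onset of the first tumor. Vhcl-treated mice received ethanol on the same schedule, although a free-text label calls their tumors not treated. Whole tumors were extracted, so fewer cells of a type and less RNA per cell cannot be told apart. The labels do not say which mouse bore each tumor, and each p-value measures the spread between these tumors.

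The acute-phase response is the rise in certain plasma proteins that follows infection, injury or cancer. Hepatocytes are its main source. Interleukin-6 and related cytokines, oncostatin M among them, act through gp130 and STAT3, and interleukin-1 and TNF act through NF-kappaB, while C/EBP-beta and C/EBP-delta bind the promoters of many of the genes. Epithelial cells, macrophages, fibroblasts, endothelial cells and neutrophils can make several of the same proteins locally, which is why their mRNA can be read in a tumor.

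Values are log2 signals after Robust Multi-array Analysis (RMA). A difference is the mean of Lov-treated minus the mean of Vhcl-treated tumors on that scale, with its standard error (SE) and 2-sided p from limma's moderated test, adjusted by the Benjamini-Hochberg method over all probe sets. Probe sets differ in affinity, so the level of one gene cannot be set against that of another. The median signal of an array lay between 4.97 and 5.05. The excess of the beta-actin 3' control over its 5' control, a log2 measure of RNA degradation, was 0.67 to 1.07 in Lov-treated and 0.80 to 1.35 in Vhcl-treated tumors, with Vhcl A59 (1.35) and Vhcl A54 (1.20) at the top. Salivary gland transcripts, averaged over 8 genes, stood at 12.13 in Vhcl AB11 and at 4.52 to 7.52 in the other 9 tumors. Skeletal muscle transcripts, averaged over 9 genes, were high in Lov A55 (8.09), Vhcl A54 (8.27) and Vhcl A59 (8.34). The part of these transcripts and of RNA quality in the acute-phase values was tested only as far as the values below show.

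At an unadjusted p under 0.05, 3 of the 10 acute-phase genes (Saa1, Saa3 and Lrg1) were lower in Lov-treated tumors, beside 2.16% of all probe sets. None of the 10 was higher at that threshold, beside 3.13% of all probe sets. No gene passed after adjustment: 0 of 10 acute-phase genes and 0% of all probe sets had an adjusted p under 0.05 by limma, and the adjusted p of the 10 genes was 0.919 to 0.988. The count of lower genes depended on single tumors. It was 6 without Vhcl A45, 5 without Vhcl AB11, 5 without Vhcl AB11 and Lov A19 together, and 2 without Lov AB10 or without Vhcl A59. It was also 2 with the beta-actin excess as a covariate. Using only probe sets with no mark of shared matching gave 2 as well, but Saa3 has no such probe set and was left out. The log2 difference was negative for 8 genes and positive for Cp and Ptx3. Its median over the 10 genes was -0.38, beside 0.01 over all probe sets, of which 47.3% had a negative difference. That median was -0.22 without Vhcl A59, -0.25 without Vhcl A49 and -0.19 with the beta-actin excess as a covariate. In none of the 10 genes did every Lov-treated tumor lie below every Vhcl-treated tumor, an arrangement found for 0.258% of all probe sets. The plot of the genes by tumor shows how far the Vhcl-treated tumors lay apart. The standard deviation was larger in Vhcl-treated than in Lov-treated tumors for the main probe set of 10 of 10 genes. This held for 57.6% of all probe sets. On the second Ptx3 probe set it was larger in Lov-treated tumors (0.34) than in Vhcl-treated tumors (0.23).

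**Figure D1:**
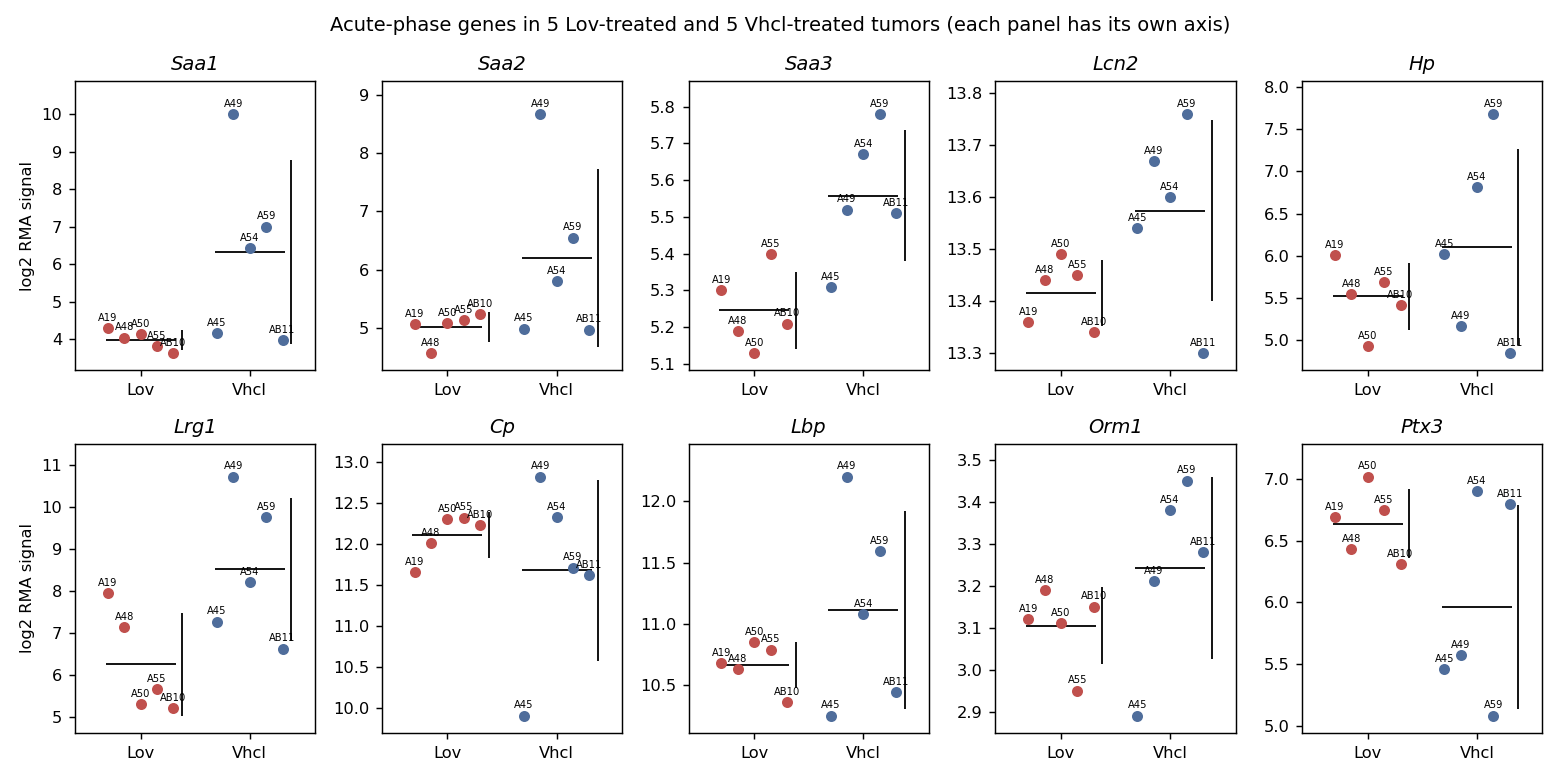
Log2 RMA signal of the main probe set of each acute-phase gene in 5 Lov-treated and 5 Vhcl-treated tumors, with 1 point per tumor, the group mean as a horizontal line and the SD as a vertical bar (n = 5 each). The Lov-treated tumors sit close together for Saa1 (3.64 to 4.31), whereas the Vhcl-treated tumors spread over 3.99 to 10.01, and each panel has its own axis.

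Saa1 and Saa2 encode the acute-phase serum amyloid A proteins, small apolipoproteins that travel on high-density lipoprotein and are made mainly in the liver. Saa3 is the mouse form known to be made outside the liver, by macrophages, fat cells and epithelia. The upstream sequences of these genes are shown because the probe sets named for Saa1 and Saa2 were highest in the same 3 Vhcl-treated tumors. Those probe sets may read the same transcripts, as said below. Saa3 varied on a far smaller scale. The 250 bases before a RefSeq start site (GRCm38.p6) are given for each. They lie at chr7:46742981-46743230 on the minus strand for Saa1 and chr7:46751583-46751832 on the plus strand for Saa2. For Saa3 they lie at chr7:46715677-46715926 on the minus strand. The Saa1 gene spans 46740497 to 46743181 and the Saa3 gene 46711998 to 46719615. Part of the Saa1 bases and all of the Saa3 bases thus lie within the gene. Capitals mark matches on either strand to the C/EBP motif TTNNGNAA:
Saa1: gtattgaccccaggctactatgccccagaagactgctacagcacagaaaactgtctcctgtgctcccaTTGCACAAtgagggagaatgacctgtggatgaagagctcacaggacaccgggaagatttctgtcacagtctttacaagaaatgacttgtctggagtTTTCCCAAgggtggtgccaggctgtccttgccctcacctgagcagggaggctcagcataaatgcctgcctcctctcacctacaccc
Saa2: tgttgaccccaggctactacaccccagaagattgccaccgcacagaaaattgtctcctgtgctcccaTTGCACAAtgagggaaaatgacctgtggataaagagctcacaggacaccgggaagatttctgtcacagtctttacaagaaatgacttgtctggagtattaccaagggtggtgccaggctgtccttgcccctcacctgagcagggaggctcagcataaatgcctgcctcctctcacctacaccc
Saa3: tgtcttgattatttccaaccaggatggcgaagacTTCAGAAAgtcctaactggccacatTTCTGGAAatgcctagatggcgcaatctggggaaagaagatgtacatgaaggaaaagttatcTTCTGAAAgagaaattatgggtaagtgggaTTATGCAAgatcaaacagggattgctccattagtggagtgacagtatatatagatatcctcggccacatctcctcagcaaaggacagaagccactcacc

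The windows of Saa1 and Saa2, each 300 bases with 50 after the start, agreed at 287 of 301 aligned positions (95.3%), against 49.5% for Saa1 with Saa3. The C/EBP motif lay in Saa1 at positions -182 to -175 and -86 to -79 relative to the start. Saa2 had only the one at -183 to -176, and Saa3 had matches that began at -216, -191, -129 and -99. Promoter windows were at hand for 7 of the 10 genes. The motif was found in 6 of those 7, all but Lrg1, beside 40.7% of 32851 RefSeq windows of the same length. That share is per window, whereas Cp was searched in 2 windows and the Saa1 and Saa2 windows are nearly alike. The STAT motif TTCNNNGAA was found in 0 of 7 genes (8.3% of all windows), and the NF-kappaB consensus in 1 of 7, Ptx3 (8.46% of all windows). The motifs were searched on both strands. A match of letters is a description and was not tested as a binding site.

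The Saa1 signal in Lov-treated tumors was 4.31 in A19, 4.05 in A48, 4.14 in A50, 3.82 in A55 and 3.64 in AB10. In Vhcl-treated tumors it was 4.18 in A45, 10.01 in A49, 6.44 in A54, 7.01 in A59 and 3.99 in AB11. Vhcl A49, A54 and A59 were thus far above all Lov-treated tumors, while Vhcl A45 and AB11 lay among them. The mean was 3.99 ± 0.26 in Lov-treated and 6.33 ± 2.46 in Vhcl-treated tumors (SD, n = 5 each) (log2 difference -2.33, SE 0.92, 95% interval -4.34 to -0.32; limma, p = 0.0266, adjusted p = 0.932; exact permutation test, 2-sided p = 0.0635). All Lov-treated tumors, Vhcl A45 and Vhcl AB11 lay under the median signal of the arrays, 5.02, where a difference of signals says little about the ratio of RNA amounts. Without Vhcl A49 the difference was -1.41. A second Saa1 probe set had the same difference of -2.33 (SE 0.92; limma, adjusted p = 0.932) and followed the first closely over the 10 tumors (Pearson's r = 0.995).

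Saa2 was measured by 1 probe set, whose signal in Lov-treated tumors was 5.07 in A19, 4.57 in A48, 5.08 in A50, 5.13 in A55 and 5.24 in AB10. The Vhcl-treated tumors had 4.99 in A45, 8.67 in A49, 5.81 in A54, 6.55 in A59 and 4.97 in AB11, in the same order from the top as for Saa1. Means were 5.02 ± 0.26 in Lov-treated and 6.20 ± 1.53 in Vhcl-treated tumors (SD, n = 5 each), with a log2 difference of -1.18 (SE 0.58, 95% interval -2.45 to 0.09; limma, p = 0.0654, adjusted p = 0.958; exact permutation test, 2-sided p = 0.119). Without Vhcl A49 it was -0.56. The transcript paired with the main Saa1 probe set belongs to Saa2 in RefSeq, and that of the second Saa1 probe set to Saa1. The names of the main Saa1 probe set and of the Saa2 probe set mark them as able to match several transcripts. For these 2 probe sets the parts of Saa1 and Saa2 in the signal cannot be told apart, while the second Saa1 probe set carries no such mark.

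For Saa3 the difference was small and the spread within each group smaller still. Its signal in Lov-treated tumors was 5.30 in A19, 5.19 in A48, 5.13 in A50, 5.40 in A55 and 5.21 in AB10. In Vhcl-treated tumors it was 5.31 in A45, 5.52 in A49, 5.67 in A54, 5.78 in A59 and 5.51 in AB11. All Vhcl-treated tumors except A45 were above the highest Lov-treated tumor, and A45 exceeded 4 of the 5. Saa3 averaged 5.25 ± 0.11 in Lov-treated and 5.56 ± 0.18 in Vhcl-treated tumors (SD, n = 5 each), 1.24-fold lower with Lov (log2 difference -0.31, SE 0.10, 95% interval -0.54 to -0.08; limma, p = 0.0116, adjusted p = 0.919; exact permutation test, 2-sided p = 0.0159). Leaving out any 1 tumor left it between -0.37 and -0.26. Vhcl AB11, which had the salivary gland transcripts, was low for Saa1 and Saa2 but not for Saa3.

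Lrg1 encodes leucine-rich alpha-2-glycoprotein 1, a secreted protein known to modify TGF-beta signaling in endothelial cells. The Lov-treated tumors had 7.94 in A19, 7.13 in A48, 5.30 in A50, 5.65 in A55 and 5.21 in AB10. The Vhcl-treated tumors had 7.26 in A45, 10.71 in A49, 8.21 in A54, 9.74 in A59 and 6.62 in AB11. Vhcl A49, A59 and A54 were again the highest, and Lov A19 stood above Vhcl A45 and AB11. The mean was 6.25 ± 1.22 in Lov-treated and 8.51 ± 1.70 in Vhcl-treated tumors (SD, n = 5 each), 4.80-fold lower with Lov (log2 difference -2.26, SE 0.78, 95% interval -3.97 to -0.55; limma, p = 0.0138, adjusted p = 0.927; exact permutation test, 2-sided p = 0.0476). Without Vhcl A49 the difference was -1.71, and without Lov A19 and Vhcl AB11 together it was -3.16. Lrg1 stands in the study's own list of lowered genes, which was chosen on these tumors, so its direction here is not independent evidence.

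Lbp encodes the lipopolysaccharide-binding protein, which passes bacterial lipopolysaccharide to CD14. In Lov-treated tumors its signal was 10.68 in A19, 10.63 in A48, 10.85 in A50, 10.79 in A55 and 10.36 in AB10. In Vhcl-treated tumors it was 10.25 in A45, 12.20 in A49, 11.08 in A54, 11.59 in A59 and 10.44 in AB11. The order of the 3 highest tumors was that of Saa1, and Vhcl A45 was the lowest of all 10. Lbp averaged 10.66 ± 0.19 in Lov-treated and 11.11 ± 0.81 in Vhcl-treated tumors (SD, n = 5 each; log2 difference -0.45, SE 0.32, 95% interval -1.14 to 0.24; limma, adjusted p = 0.979; exact permutation test, 2-sided p = 0.294). Without Vhcl A49 it was -0.18 and without Vhcl A45 -0.67. The second Lbp probe set had a difference of -0.63 (SE 0.45) and also its highest signals in Vhcl A49 (9.23) and Vhcl A59 (8.43).

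Hp encodes haptoglobin, which binds free hemoglobin in plasma. Its signal was 6.01, 5.55, 4.93, 5.69 and 5.42 in Lov A19, A48, A50, A55 and AB10. It was 6.02, 5.17, 6.81, 7.68 and 4.85 in Vhcl A45, A49, A54, A59 and AB11. Here Vhcl A59 and A54 stood out, whereas Vhcl A49, the tumor with the most Saa1, Saa2, Lrg1 and Lbp signal, lay below 4 of the 5 Lov-treated tumors. Hp averaged 5.52 ± 0.40 in Lov-treated and 6.11 ± 1.17 in Vhcl-treated tumors (SD, n = 5 each; log2 difference -0.59, SE 0.46, 95% interval -1.60 to 0.43; limma, adjusted p = 0.984; exact permutation test, 2-sided p = 0.349). The difference was -0.19 without Vhcl A59, -0.90 without Vhcl AB11 and -0.09 once the beta-actin control excess entered the fit as a covariate. The same 2 tumors, Vhcl A54 and A59, had the highest beta-actin value and high muscle transcripts.

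Orm1 encodes orosomucoid 1, also called alpha-1-acid glycoprotein, a plasma protein that carries basic and lipophilic drugs. Its mean signal ranked at the 11.5 percentile of all probe sets, and it was the only one of the 10 genes whose mean over all tumors was under the median signal of the arrays. Saa1 passed that median only through Vhcl A49, A54 and A59. The signals were 3.12, 3.19, 3.11, 2.95 and 3.15 in Lov A19, A48, A50, A55 and AB10. They were 2.89, 3.21, 3.38, 3.45 and 3.28 in Vhcl A45, A49, A54, A59 and AB11, a narrow range that overlapped the first. The difference was -0.14 (SE 0.11, 95% interval -0.38 to 0.11; limma, adjusted p = 0.986; exact permutation test, 2-sided p = 0.230). Its relatives Orm2 and Orm3 had differences of 0.07 (SE 0.09) and 0.03 (SE 0.11) at similarly low signals.

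Lcn2 encodes lipocalin 2, which withholds iron from bacteria by binding their siderophores and is made by neutrophils and by stressed epithelia. The Lov-treated tumors had 13.36 in A19, 13.44 in A48, 13.49 in A50, 13.45 in A55 and 13.34 in AB10. The Vhcl-treated tumors had 13.54 in A45, 13.67 in A49, 13.60 in A54, 13.76 in A59 and 13.30 in AB11. All Vhcl-treated tumors except AB11, which was lowest of all, were above every Lov-treated tumor. The means were 13.42 ± 0.06 in Lov-treated and 13.57 ± 0.17 in Vhcl-treated tumors (SD, n = 5 each; log2 difference -0.16, SE 0.10, 95% interval -0.37 to 0.06; limma, adjusted p = 0.977; exact permutation test, 2-sided p = 0.0952). The mean signal of this probe set ranked at the 99.98 percentile of the array. How far a signal so near the top of the scale can still follow the amount of RNA was not tested.

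Cp encodes ceruloplasmin, the copper-carrying ferroxidase of plasma, and its difference was positive. The main probe set read 11.65 in A19, 12.01 in A48, 12.30 in A50, 12.32 in A55 and 12.23 in AB10 of the Lov-treated tumors. It read 9.90 in A45, 12.82 in A49, 12.33 in A54, 11.71 in A59 and 11.62 in AB11 of the Vhcl-treated tumors. Vhcl A49 was the highest of the 10, as for Saa1, and Vhcl A45 was the lowest by far. Means were 12.10 ± 0.28 in Lov-treated and 11.68 ± 1.11 in Vhcl-treated tumors (SD, n = 5 each; log2 difference 0.43, SE 0.43, 95% interval -0.51 to 1.37; limma, adjusted p = 0.988; exact permutation test, 2-sided p = 0.548). Without Vhcl A45 the difference turned to -0.02.

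All 8 probe sets of Cp had a positive difference, as the plot of the Cp probe sets shows, but not of one size. Those of the 4 with the strongest signal lay at 0.36 to 0.43. Probe set 1448735_at had 7.45, 8.25, 8.61, 8.51 and 8.47 in Lov A19, A48, A50, A55 and AB10, against 4.42, 7.39, 8.13, 5.85 and 7.61 in Vhcl A45, A49, A54, A59 and AB11. Its difference was 1.58 (SE 0.60, 95% interval 0.28 to 2.88; limma, p = 0.0217, adjusted p = 0.928; exact permutation test, 2-sided p = 0.0317), 2.99-fold higher with Lov. On this probe set Vhcl A49, the top tumor on the main one, was below every Lov-treated tumor. Probe set 1417497_at gave 0.98 (exact permutation test, 2-sided p = 0.103). The correlation of the other 7 with the main probe set over the 10 tumors was 0.669 to 0.986, and which transcripts of Cp each one reads is not given in the sources used here.

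**Figure D2:**
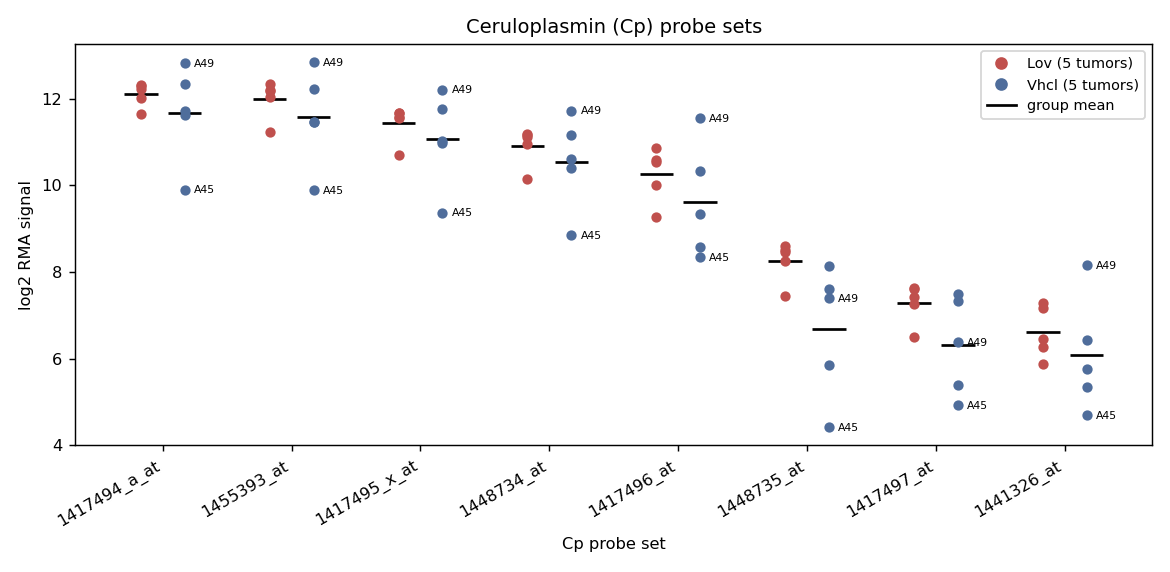
Log2 RMA signal of the 8 Cp probe sets, ordered by mean signal, with 1 point per tumor for the 5 Lov-treated (left of each pair) and 5 Vhcl-treated tumors and the group mean as a line. Vhcl A45 is the lowest point of every probe set, and the gap between the group means is widest for 1448735_at (log2 difference 1.58).

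Ptx3 encodes pentraxin 3, a soluble pattern-recognition protein that myeloid, endothelial and stromal cells release on the spot in response to interleukin-1 and TNF. Its main probe set read 6.69, 6.43, 7.02, 6.75 and 6.31 in Lov A19, A48, A50, A55 and AB10. The Vhcl-treated tumors had 5.46 in A45, 5.57 in A49, 6.90 in A54, 5.08 in A59 and 6.80 in AB11. Vhcl A45, A49 and A59 thus lay below every Lov-treated tumor, while Vhcl A54 and AB11 lay among the higher ones. The mean was 6.64 ± 0.28 in Lov-treated and 5.96 ± 0.83 in Vhcl-treated tumors (SD, n = 5 each; log2 difference 0.68, SE 0.33, 95% interval -0.05 to 1.41; limma, p = 0.0653, adjusted p = 0.958; exact permutation test, 2-sided p = 0.135). The second probe set, whose paired transcript is the one RefSeq lists for Ptx3, read 5.44 to 6.31 in Lov-treated and 5.67 to 6.25 in Vhcl-treated tumors. Its difference was 0.02 (SE 0.17; limma, p = 0.916), so the gap of the main probe set was not seen on it (r between the probe sets 0.464, n = 10).

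The plot of differences with their intervals sets the 20 probe sets side by side. Of these, 5 had an unadjusted p under 0.05, namely both of Saa1, those of Saa3 and Lrg1, and 1 of Cp with the opposite sign. Over all probe sets 2.16% were lower and 3.13% higher at that threshold. The intervals of Saa1 and Lrg1 were the widest among the main probe sets, and those of Saa3 and Lcn2 were narrow.

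**Figure D3:**
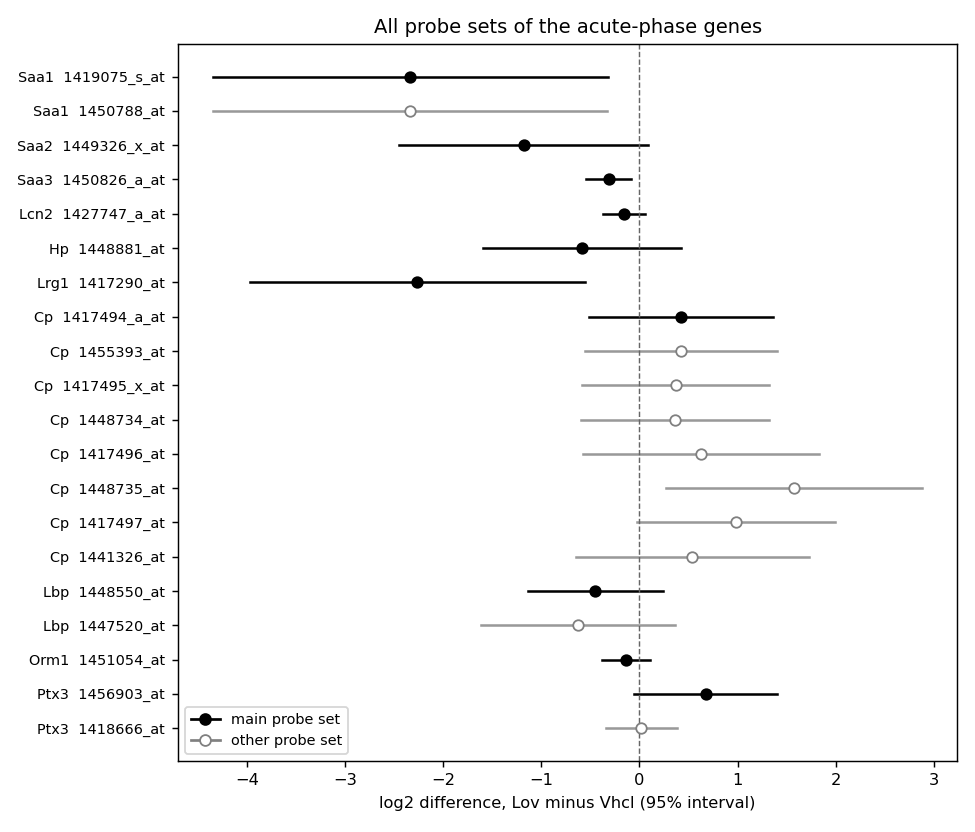
Log2 difference between 5 Lov-treated and 5 Vhcl-treated tumors with its 95% interval from limma's moderated standard error, for the 20 probe sets of the 10 acute-phase genes (filled points, main probe set of a gene). Negative values are lower with Lov: Saa1 at -2.33 and Lrg1 at -2.26 lie farthest to the left, and all 8 Cp probe sets lie to the right of 0.

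Read by tumor, the high values fell on few Vhcl-treated tumors but not on the same genes in each. Vhcl A54 was among the 3 highest tumors for 10 of 10 genes, Vhcl A59 for 8 and Vhcl A49 for 7. Vhcl A49 was the highest for Saa1, Saa2, Lrg1, Cp and Lbp. Vhcl A59 was the highest for Saa3, Lcn2, Hp and Orm1 and the lowest for Ptx3. The other Vhcl-treated tumors did not share this: A45 was the lowest of all for Cp, Lbp and Orm1, and AB11 for Lcn2 and Hp. Among Lov-treated tumors, only A50 was ever the highest, for Ptx3. The mean over the 10 genes of the standardized signal was -0.52 to -0.21 in Lov-treated tumors, and in Vhcl-treated tumors it was -0.74 in A45, 1.02 in A49, 0.73 in A54, 0.94 in A59 and -0.32 in AB11. The plot of deviations by tumor shows the same.

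**Figure D4:**
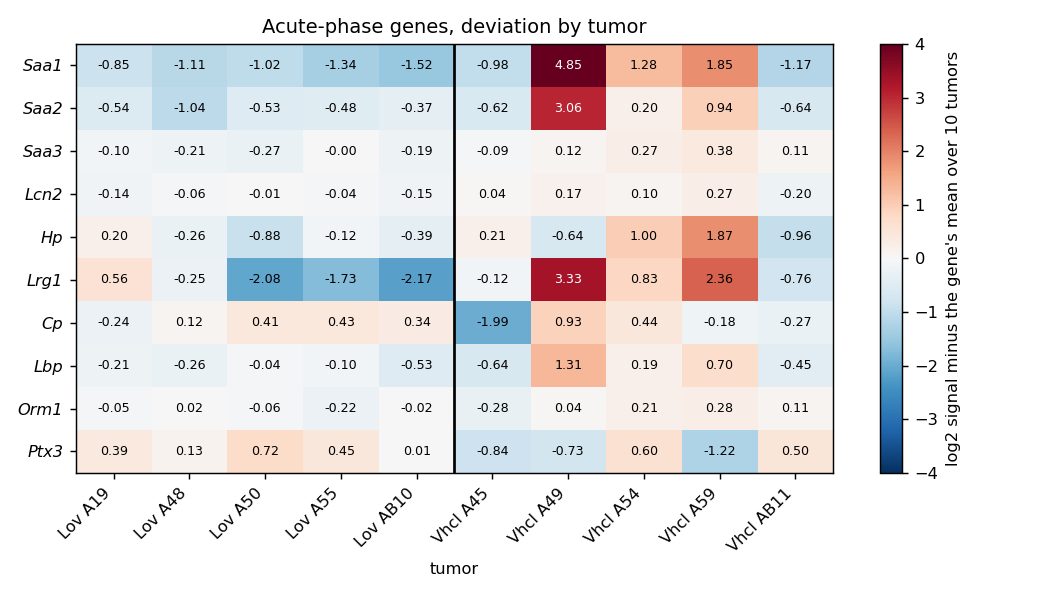
Deviation of each acute-phase gene from its own mean over the 10 tumors (log2 signal, colour scale from -4 to 4), with Lov-treated tumors left of the line and Vhcl-treated tumors right of it. Vhcl A49 deviates by 4.85 for Saa1, 3.06 for Saa2 and 3.33 for Lrg1 but by -0.64 for Hp, and Vhcl A45 by -1.99 for Cp.

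As a description over these 10 tumors, the Saa1 signal ran with that of Saa2 (r = 0.966, with a Spearman's rho of only 0.515). The main Saa1 and the Saa2 probe sets are both paired with a Saa2 transcript, so their r does not compare 2 separately measured genes. Saa1 also ran with Lbp (r = 0.943) and Lrg1 (r = 0.887), but less with Hp (r = 0.267) and Cp (r = 0.379). It ran opposite to Ptx3 (r = -0.522). These r pool both groups. With each group's own mean removed, r was 0.957 for Saa2, 0.960 for Lbp and 0.818 for Lrg1. It was 0.074 for Hp, 0.714 for Cp and -0.307 for Ptx3. Vhcl A49 and A59 were the tumors farthest from the median of Saa1. Without them the pooled r was 0.751 for Saa2, 0.666 for Lbp, 0.666 for Lrg1, 0.754 for Hp, 0.149 for Cp and 0.268 for Ptx3. The pooled values for Saa2, Lbp, Lrg1 and Cp were thus smaller and that for Hp larger without those tumors. The sign for Ptx3 turned. Saa1, Saa2 and Lrg1 were the members whose SD over the tumors exceeded 1 and that were set against the other 18183 genes (Hp and Cp stayed below). Most like Saa1 were Intu (r = 0.969, n = 10), Angpt1, which encodes a ligand of the Tie2 receptor (r = 0.963), and Muc1, an epithelial mucin (r = 0.962). Most like Saa2 were 1810065E05Rik (r = 0.962), Oas2, an interferon-induced antiviral enzyme (r = 0.959), and Angpt1 (r = 0.958). Most like Lrg1 were Pfkfb3, an enzyme that drives glycolysis (r = 0.972), Srgn, the granule proteoglycan serglycin (r = 0.956), and Cyba, a subunit of the NADPH oxidase (r = 0.956). Without Vhcl A49 and A59 these 3 were at r = 0.924, 0.922 and 0.879, whereas 1810065E05Rik was at 0.390 with Saa2. Pfkfb3 also stands in the study's own list.

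Of 29 other positive acute-phase genes, 23 were measured. At an unadjusted p under 0.05, 3 of them were lower with Lov and 0 higher, beside 2.16% and 3.13% of all probe sets. The median log2 difference of the list was -0.05. Of the 23, 14 had a mean signal under the median of the arrays. Serpina3n, an acute-phase protease inhibitor, had a mean of 7.56 ± 0.57 in Lov-treated and 8.57 ± 0.46 in Vhcl-treated tumors (SD, n = 5 each; difference -1.01, SE 0.28; limma, adjusted p = 0.919). Mt1, a metal-binding metallothionein, had a difference of -0.84 (SE 0.26), and A2m, the protease inhibitor alpha-2-macroglobulin, of -0.85 (SE 0.29). Of the 11 negative acute-phase genes, those whose liver expression falls during the response, 10 were measured. Neither direction had a gene at that threshold, and the median was -0.06. Of the 10, 6 had a mean signal under the median of the arrays. Serpina3n is in the study's own list, as is Cebpd below, and neither is independent evidence of direction.

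The inducers showed both directions. Of 33 cytokines, receptors and signaling genes, 31 were measured. At the same threshold, 6 were lower with Lov and 2 higher, beside 2.16% and 3.13% of all probe sets, and the median was -0.004. Cebpd, which encodes C/EBP-delta, read 8.75, 8.53, 7.11, 7.53 and 7.24 in Lov A19, A48, A50, A55 and AB10, against 8.84, 9.35, 9.85, 9.73 and 8.57 in Vhcl A45, A49, A54, A59 and AB11. Among Vhcl-treated tumors only AB11 lay below the highest Lov-treated tumor (difference -1.44, SE 0.36; limma, adjusted p = 0.919). Osmr, the oncostatin M receptor, had a difference of -0.90 (SE 0.30) and Socs3, a feedback inhibitor induced by STAT3, of -1.01 (SE 0.45). Il17ra, the interleukin-17 receptor, was lower in every Lov-treated tumor (6.49 to 6.69) than in any Vhcl-treated tumor (6.77 to 6.91). Such an arrangement was found for 0.258% of all probe sets. The difference was only -0.24 (SE 0.08; limma, adjusted p = 0.919; exact permutation test, 2-sided p = 0.00794, the smallest possible here). Tnfrsf1a (-0.30) and Lif (-0.35) were also lower at that threshold, while Nfkbia, the inhibitor of NF-kappaB (0.35), and Lifr (0.34) were higher. Lif had a mean signal under the median of the arrays, at the 40.1 percentile of all probe sets.

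For the cytokine genes Il6, Osm and Il1b no difference in mRNA was detectable. Il6 averaged 2.75 ± 0.10 in Lov-treated and 2.76 ± 0.12 in Vhcl-treated tumors (SD, n = 5 each; difference -0.004, SE 0.09). Its mean signal ranked at the 3.1 percentile of all probe sets, near the floor, so this value says little about Il6 mRNA. Osm, encoding oncostatin M, had a difference of 0.07 (SE 0.12) and Il1b of 0.11 (SE 0.18). Cebpb had -0.17 (SE 0.18) and Stat3 -0.42 (SE 0.24), with the highest Stat3 signals in Vhcl A49 (10.68) and A54 (10.45).

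Of 31 receptors and binding partners of the acute-phase proteins, 28 were measured, with 4 lower and 0 higher at the unadjusted threshold (median -0.09). The shares over all probe sets were 2.16% lower and 3.13% higher. Cd14, which receives lipopolysaccharide from Lbp, read 8.54, 8.52, 7.49, 7.75 and 7.44 in Lov A19, A48, A50, A55 and AB10. It read 8.18, 10.57, 10.22, 9.73 and 7.94 in Vhcl A45, A49, A54, A59 and AB11, so that the tumors with high Lbp, Vhcl A49, A54 and A59, also had high Cd14 (difference -1.38, SE 0.49; limma, adjusted p = 0.928; also in the study's own list). Heph, a membrane ferroxidase related to ceruloplasmin, had a difference of -0.75 (SE 0.29). The integrin gene Itgam had -0.34 (SE 0.13) and the Fc receptor gene Fcgr1 -0.34 (SE 0.14). Mean signals of Heph and Itgam lay under the median of the arrays, at the 31.8 and 23.1 percentile. Tlr4 had -0.08 (SE 0.13), and Slc22a17, a receptor for lipocalin 2, had 0.02 (SE 0.12). The plot of related gene lists sets these counts beside one another.

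**Figure D5:**
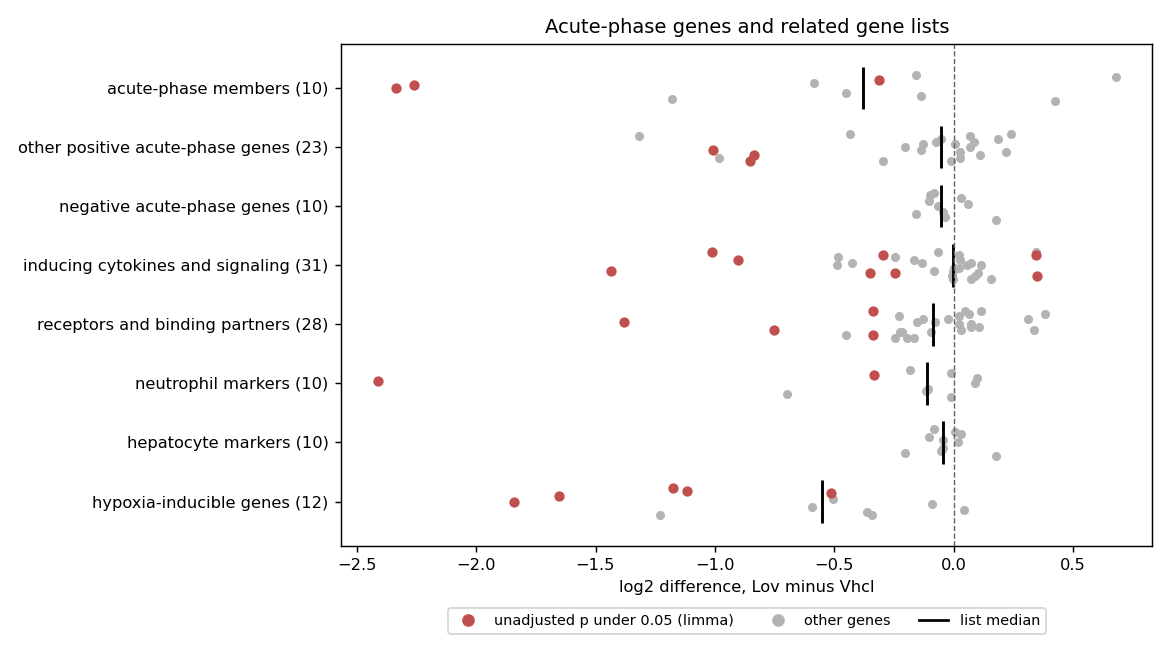
Log2 difference between Lov-treated and Vhcl-treated tumors (n = 5 each) for each measured gene of 8 lists, with 1 point per gene, red points where limma's unadjusted p was under 0.05 and a bar at the list median. The acute-phase members have a median of -0.38 and the hypoxia-inducible genes of -0.55, while the hepatocyte markers lie close to 0.

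Hepatocyte markers, averaged over 10 measured genes of 11, stood at 4.30 to 4.58 in Lov-treated and 4.25 to 4.48 in Vhcl-treated tumors. Of the 10, 8 had a mean signal under the median of the arrays, and none passed an unadjusted p of 0.05 in either direction. Alb averaged 3.94 ± 0.21 in Lov-treated and 4.04 ± 0.17 in Vhcl-treated tumors (SD, n = 5 each), and Ttr 5.46 ± 0.24 in Lov-treated and 5.43 ± 0.06 in Vhcl-treated tumors. Vhcl A49, with the highest Saa1, had the lowest hepatocyte mean of all (4.25). The 9 measured markers of mammary luminal tumor cells averaged 10.03 to 10.32 in Lov-treated and 10.17 to 10.62 in Vhcl-treated tumors, and 0 of 9 passed that threshold. Krt19, a luminal keratin, read 4.67 to 4.95 in Lov-treated and 4.27 to 8.24 in Vhcl-treated tumors. The mean of the other 8, taken after these values were seen, was 10.69 to 11.01 in Lov-treated and 10.78 to 11.14 in Vhcl-treated tumors.

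Neutrophil markers, which could bear on Lcn2, Hp and Lrg1 since neutrophils store or make these proteins, averaged 4.17 to 4.61 in Lov-treated and 4.31 to 5.08 in Vhcl-treated tumors over 10 measured genes of 13. Of these, 9 were under the median signal of the arrays. Mpo averaged 4.49 ± 0.17 in Lov-treated and 4.51 ± 0.13 in Vhcl-treated tumors (SD, n = 5 each). S100a9 (difference -0.33, SE 0.14) and Ltf (difference -2.41) were lower with Lov at an unadjusted p under 0.05. This count and those of the lists that follow stand beside 2.16% of all probe sets lower and 3.13% higher. Ltf, lactoferrin, is also made by mammary epithelium, and read 11.09 in Vhcl A49 and 11.81 in Vhcl A59 against 5.33 to 7.63 in Lov-treated and 6.03 to 7.91 in the other Vhcl-treated tumors. Without Ltf, left out after its values were seen, the mean of the other 9 was 3.97 to 4.27 in Lov-treated and 4.12 to 4.35 in Vhcl-treated tumors. Of 10 measured macrophage markers 1 was lower (Fcgr1) and 1 higher (Csf1r, difference 0.43, SE 0.15), with means of 6.51 to 7.33 in Lov-treated and 6.96 to 7.20 in Vhcl-treated tumors. Among 8 measured adipocyte markers Fabp4 was lower (-0.86, SE 0.37), the list mean being 4.37 to 5.66 in Lov-treated and 4.83 to 5.92 in Vhcl-treated tumors. The salivary gland list, high in Vhcl AB11, had 3 of 8 genes lower and 0 higher (median difference -2.46). The skeletal muscle list had 0 of 9 genes past that threshold, with 9 of 9 differences negative (median -0.90), and the fibroblast list 0 of 9 (median -0.44). The part of these cell types in the acute-phase values was not tested.

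Hypoxia-inducible genes mostly had differences of the same sign as Lrg1. Of 12 measured, 5 were lower and 0 higher at that threshold, beside 2.16% and 3.13% of all probe sets, with a median of -0.55. Their mean was 7.31 to 8.91 in Lov-treated and 8.35 to 9.15 in Vhcl-treated tumors. Lov A19, the Lov-treated tumor with the most Lrg1 (7.94), also had the highest hypoxia mean of its group (8.91). Vhcl A59 had the highest of all (9.15). Vhcl A49, the tumor with the most Lrg1 of all (10.71), had a hypoxia mean of 8.595, below that of Lov A19. Ndrg1 had a difference of -1.84 (SE 0.41), Ak4 of -1.65 (SE 0.52), Bnip3 of -1.17 (SE 0.27), Ero1a of -1.12 (SE 0.37) and Pdk1 of -0.51 (SE 0.18). All of these but Pdk1 are in the study's own list, so their direction is not independent evidence, and their part in the Lrg1 signal was not tested.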

How the data were processed

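RNA from 10 whole mammary tumors had been hybridized to 1 Affymetrix MG430 2.0 array each. The authors deposited log2 signals, summarized and normalized by RMA with the affy package (version and genome build not given in the sources used here), with 2 decimals. Arrays have no sequencing depth, and their number limits the precision. After 64 control probe sets were left out, 45037 were fitted with limma 3.58.1 in R 4.3.3 (default prior, no covariate, 2-sided, Benjamini-Hochberg over all). Exact permutation tests enumerated 252 assignments of 5 tumors to Lov, with a smallest p of 0.00794. Of the probe sets tested, 34945 carried 1 gene symbol, 932 several and 9160 none. The fit was tested on simulated data with normal errors of 1 spread per probe set, shared by both groups. The unequal spread of the acute-phase genes between the groups was thus not covered.

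The acute-phase genes, the other lists and most alternatives were chosen with earlier results of these data known, from general knowledge. Named were all probe sets of the 10 genes, up to 5 genes of each other list with the lowest p under 0.05, preset inducers, the marker genes of highest signal, and the 3 genes most like each member whose SD exceeded 1. Orm2, Orm3, Tlr4, Slc22a17, Alb, Mpo and single values by tumor were added after their values were seen. Alternatives were Student's t-test (named in the methods for pairs of groups), array weights, a robust prior with trend, median centring, further quantile normalization, averaging a gene's probe sets, probe sets without a mark of shared matching, a filter at the median signal, the letters of the tumor ID or the beta-actin signal as a covariate, ratios of linear means, and leaving out tumors.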

Additional observations from a re-analysis of the deposited data

Results flagged for a closer look

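Among 40 groups of 5 tumors (20 probe sets, 2 groups each), 4 held a tumor whose gap to its nearest neighbor exceeded 0.71 of the group's range, Dixon's 95% critical value. Chance gives about 1 such group in 20. Lov A48 was lowest for Saa2 at 4.57, with a ratio of 0.746. Lov A19 was lowest on 3 of the 8 Cp probe sets, at 11.23 on 1455393_at (ratio 0.736), 10.70 on 1417495_x_at (ratio 0.876) and 10.15 on 1448734_at (ratio 0.769). These 3 probe sets read the same gene in the same tumors and are not separate observations. All 4 were among the Lov-treated tumors. Vhcl A49 at 10.01 for Saa1 did not exceed that limit.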

How the results depend on the processing

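Over 22 other settings, 216 values of the 10 acute-phase differences were computed. Of these, 215 kept their direction, but many of them could not have turned. Student's t-test, the trended, robust prior, the filter at the median signal and the letters of the tumor ID repeated the main differences. So did averaging probe sets for each gene that has only 1. An adjusted p was computed for 206, and 0 of them were under 0.05 (lowest 0.212, for Lrg1). Cp turned to -0.018 without Vhcl A45. As a log2 ratio of linear means, Saa1 was at -3.99 in place of -2.33, Saa2 at -1.92 in place of -1.18, Hp at -0.92 in place of -0.59 and Cp at 0.17 in place of 0.43. The count of genes lower at an unadjusted p under 0.05 was 2 to 6 when 1 tumor was left out, and the count of genes higher was 0 to 1. Without Lov A19 and Vhcl AB11 together, the counts were 5 and 1. Leaving out 1 tumor gave -2.92 to -1.41 for Saa1, -1.49 to -0.56 for Saa2, -0.37 to -0.26 for Saa3, -0.23 to -0.11 for Lcn2, -0.90 to -0.19 for Hp, -2.73 to -1.71 for Lrg1, -0.02 to 0.71 for Cp, -0.67 to -0.18 for Lbp, -0.23 to -0.09 for Orm1 and 0.46 to 0.91 for Ptx3. Student's t-test, the trended, robust prior, the beta-actin covariate and the probe sets with no shared mark each left 2 genes lower at that threshold. In the last of these settings Saa3 was absent, and Saa1 and Lrg1 kept their differences. The median over the 10 genes was -0.49 to -0.22 when 1 tumor was left out and -0.19 with the beta-actin covariate. Orm1 drops out of the filter at the median signal, and Saa2, Saa3 and Lcn2 have no probe set free of a mark of shared matching. Any of the letters s, x or a in the probe set name was counted as such a mark. No paired analysis was possible because the tumor IDs share no number between the groups. With 5 tumors per group and an SD of up to 2.46 among Vhcl-treated tumors, none of the 10 differences passed after adjustment. Even unadjusted, the 95% intervals of Saa2, Lcn2, Hp, Cp, Lbp, Orm1 and Ptx3 included 0. Signals near the floor (Orm1) or near the top of the scale (Lcn2) bound what can be read.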
